A study of Mus musculus with 28 samples.

Results

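Collagen chain genes were followed in archival mouse liver after phenobarbital. The array held 63 probes for 43 such genes, out of 55681 distinct probes for 37074 genes. Members were all genes whose symbol, found through the probe's RefSeq accession, reads Col, a number, a and a number, as in Col1a1. They fell into 11 fibrillar chains, 8 basement membrane chains (types IV, XV and XVIII) and 24 other chains. Of the members, 29 had 1 probe, 9 had 2, 4 had 3 and 1 had 4, and the probe with the highest mean one-colour signal stood for the gene.

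The livers came from male B6C3F1 mice, labelled as 42 days of age, and had been fixed in formalin, embedded in paraffin and stored as blocks for 16 years. The treated group drank water with 0.05% phenobarbital for about 4 weeks (3 mice), and the controls drank water alone (3 mice). Phenobarbital is a barbiturate and the classic activator of CAR, the constitutive androstane receptor of hepatocytes. The study asked how RNA from such blocks can be measured on Agilent arrays. The same 6 mice were measured 4 times over, on one-colour arrays with a 1X or a 1.5X amount of cDNA and on two-colour arrays with either amount. These are called the 4 sets. Each set was 1 slide and held both exposures. The sets are repeat measurements of the same mice and not independent experiments, and the control mice are shared by all of them.

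Collagens are extracellular proteins built from 3 chains that wind into a triple helix. Fibrillar chains such as those of types I, III and V assemble into the fibres of connective tissue, type IV chains form the sheet-like network of basement membranes, and the remaining chains decorate fibrils, anchor them, span cell membranes or form fine filaments. In liver, stellate cells and portal fibroblasts are the main known source of fibrillar collagen, while endothelial cells, hepatocytes and bile duct cells contribute basement membrane chains. In bulk tissue, fewer cells of a type and less RNA per cell cannot be told apart.

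The promoters of the 3 chains that passed the threshold in at least 1 comparison are shown here, from 250 bases before to 50 bases after the RefSeq start site (build GRCm38.p6), so that the genes behind the results can be seen. Capitals mark matches, on either strand, to the letters GGGCGG (the GC box) or CCAAT (the CCAAT box).
Col27a1, chr4:63215162-63215461, plus strand: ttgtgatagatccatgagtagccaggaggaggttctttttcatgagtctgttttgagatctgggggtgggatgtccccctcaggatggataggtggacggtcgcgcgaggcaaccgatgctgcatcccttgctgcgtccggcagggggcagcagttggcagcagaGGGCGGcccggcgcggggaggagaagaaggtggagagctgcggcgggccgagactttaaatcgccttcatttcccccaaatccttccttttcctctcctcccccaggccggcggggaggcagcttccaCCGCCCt
Col5a3, chr9:20815018-20815317, minus strand: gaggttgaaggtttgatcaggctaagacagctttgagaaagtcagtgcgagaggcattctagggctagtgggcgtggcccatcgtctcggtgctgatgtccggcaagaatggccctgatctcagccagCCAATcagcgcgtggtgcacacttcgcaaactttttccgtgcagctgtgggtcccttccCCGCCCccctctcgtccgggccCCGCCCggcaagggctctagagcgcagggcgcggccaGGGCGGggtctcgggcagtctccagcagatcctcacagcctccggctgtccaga
Col15a1, chr4:47207762-47208061, plus strand: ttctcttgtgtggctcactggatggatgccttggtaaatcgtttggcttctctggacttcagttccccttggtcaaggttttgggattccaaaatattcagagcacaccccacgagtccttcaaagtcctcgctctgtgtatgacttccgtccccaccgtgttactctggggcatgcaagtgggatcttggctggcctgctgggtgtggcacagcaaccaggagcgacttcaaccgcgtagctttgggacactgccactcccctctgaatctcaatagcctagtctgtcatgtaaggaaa

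The windows differ in base composition. The Col27a1 window held 18 CG pairs at a GC content of 61.7%, the Col5a3 window 20 at 63.3%, and the Col15a1 window 8 at 52.3%. GGGCGG matched at 2 places for Col27a1 and 3 for Col5a3, against 35.7% of all 32851 RefSeq windows of this length with at least 1 match. CCAAT matched at 1 place for Col5a3, and 37.4% of all windows hold it. TATAAA (the TATA box) and the nuclear receptor half-sites AGGTCA and AGTTCA, none of which overlaps another motif searched, were in none of these 3 windows on either strand. Of all windows, 13.6% hold TATAAA, 16.3% AGGTCA and 14.0% AGTTCA. A match is a run of letters and not a binding site, and no match says only that these letters lie outside this window.

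How much of the family could be measured depended on the set. Over the 12 one-colour arrays, 13 members were well above background on every array, 17 on some and 13 on none. Well above background is the scanner software's own flag for a spot that exceeds its local background. Fibrillar and basement membrane chains made up most of those seen throughout: 5 of 11 fibrillar chains (Col1a1, Col1a2, Col3a1, Col5a1, Col5a3), 4 of 8 basement membrane chains (Col4a1, Col4a2, Col15a1, Col18a1) and 4 of 24 others (Col6a1, Col6a2, Col7a1, Col14a1) were well above background on all 12 arrays. Col27a1 and Col16a1 were seen on 11 of 12.

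The members seen on none of the 12 arrays were Col2a1, Col5a2, Col11a1 and Col24a1 among fibrillar chains and Col4a5 among basement membrane chains. Among the others they were Col6a6, Col8a1, Col9a3, Col17a1, Col19a1, Col22a1, Col26a1 and Col28a1. Several are known from tissues other than liver, such as Col2a1 and Col11a1 from cartilage and Col17a1 from skin. Partners within a collagen type were not always seen together. Type VI filaments are usually built of an alpha-1, an alpha-2 and an alpha-3 chain, and Col6a3 was well above background on 3 of 12 arrays beside 12 of 12 for Col6a1 and Col6a2. Type V showed Col5a1 and Col5a3 on 12 of 12 arrays and Col5a2 on 0. Probes differ in their response, so these counts say which probes gave signal and do not rank the chains.

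By set, 17 of the 43 members were well above background on all 6 one-colour 1X arrays and 13 on all 6 one-colour 1.5X arrays. In the two-colour 1X set the count was 12 in the Cy3 channel and 8 in the Cy5 channel. In the two-colour 1.5X set it was 15 in Cy3 and 2 in Cy5, which were Col3a1 and Col18a1. The same count over all 37074 genes on the array was 44.4% at one-colour 1X, 29.9% at one-colour 1.5X, 23.7% and 16.3% in Cy3 and Cy5 at two-colour 1X, and 35.6% and 2.79% in Cy3 and Cy5 at two-colour 1.5X. The channel with the fewest members seen was also the channel with the fewest genes seen. Per array, 23 to 25 members were seen in phenobarbital mice and 19 to 26 in control mice at one-colour 1X. At one-colour 1.5X the numbers were 13 to 20 in phenobarbital mice and 17 to 21 in control mice. The ranges overlapped in both sets.

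**Figure D1:**
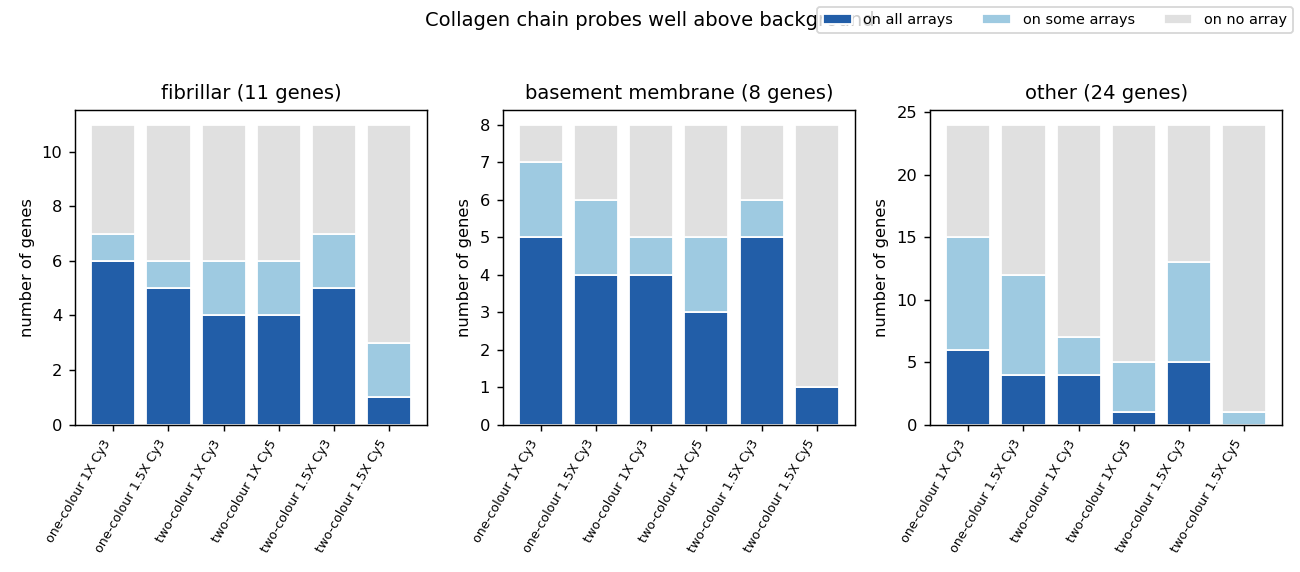
Number of fibrillar, basement membrane and other collagen genes (y axis) whose probe was well above background on all, some or none of the arrays of each set and dye channel (x axis). The Cy5 channel of the two-colour 1.5X set stands lowest in every class, with 1, 1 and 0 genes on all arrays.

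The tissue and exposure labels were checked before the collagen values were used. The hepatocyte markers Alb, Apoa1, Ttr, Serpina1a and Fgb were tested in every set, so 5 of 5 were well above background. Pancreas markers gave signal in these blocks too. Over both one-colour inputs 10 of 11 were tested, all 10 with negative estimates (median -0.96), and 0 passed by limma. Their part in the collagen values was not tested. Cyp2b10, the cytochrome P450 gene known as the main phenobarbital target in mouse liver, was well above background on 6 of 6 one-colour arrays of phenobarbital mice and on 0 of 6 of control mice. Taking the controls at the lowest level called well above background, it was at least 23.3-fold higher with phenobarbital. The limma fit, which used control spots not well above background, gave adjusted p = 0.00013. Cyp2b10 entered that test through the phenobarbital group alone. At two-colour 1X it was seen on 6 of 6 phenobarbital and 0 of 6 control measurements. At two-colour 1.5X it was seen on 4 of 8 phenobarbital and 4 of 8 control measurements, read 7.36, 7.28 and 7.01 in phenobarbital mice and 7, 7.17 and 6.6 in control mice, overlapped and was not tested, so the exposure labels of that set had no such check.

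Over both one-colour inputs, 16 of the 43 members were tested, since the test was kept to genes seen on every array of the phenobarbital mice, of the control mice or of both. One-colour values are log2 processed signals relative to the array's 75th percentile, averaged over the 2 arrays of a mouse. Col27a1 fell with phenobarbital and was the only one of these 16 past the adjusted threshold of 0.05. The other 15 gave estimates on both sides of 0. Of all 12809 genes tested in this comparison, 0.749% passed, 0.671% higher and 0.0781% lower. The median change of the 16 members was 0.17 on the log2 scale and that of all genes tested was -0.02. By class the medians were 0.22 for 6 fibrillar chains, -0.01 for 5 basement membrane chains and 0.36 for 5 other chains, and each class held both positive and negative estimates. The choice of tested chains and the small classes make these medians a description only.

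**Figure D2:**
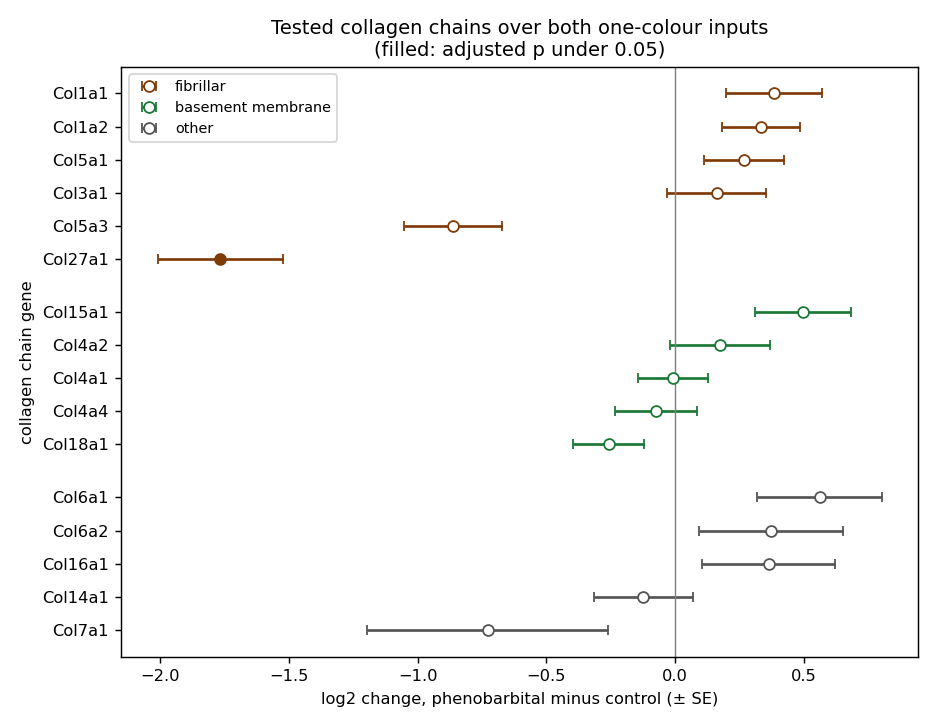
Log2 change, phenobarbital minus control, with its standard error (x axis) for the 16 tested collagen genes (y axis) over both one-colour inputs, ordered within each class. Col27a1 at -1.77 is the filled point past the threshold, and the other chains lie between -0.86 and 0.56.

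Col27a1 encodes the single chain of type XXVII collagen, a fibril-forming collagen known mainly from developing cartilage. Over both one-colour inputs it read -1.99, -2.60 and -2.93 in phenobarbital mice, against -0.64, -0.75 and -0.84 in control mice. All phenobarbital mice lay below all control mice, by more than the spread within either group, and the phenobarbital mice were the more scattered. The fitted change was -1.77 (SE 0.24, adjusted p = 0.0289), and it includes 1 phenobarbital spot not well above background. The probe was well above background on 5 of 6 phenobarbital and 6 of 6 control arrays, so the gene entered the test through the controls. It was the same 1 probe in every set.

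The one-colour inputs taken singly showed the same order for Col27a1 without passing the threshold. At 1X the values were -1.46, -1.74 and -1.63 in phenobarbital mice and -0.19, -0.32 and -0.45 in control mice (change -1.29, SE 0.19, adjusted p = 0.0690). At 1.5X they were -2.52, -3.47 and -4.24 in phenobarbital mice and -1.09, -1.17 and -1.23 in control mice (change -2.24, SE 0.40, adjusted p = 0.0814). The lowest of these, from phenobarbital mouse 3 at 1.5X, was a spot not well above background, with a processed signal of 57.0 beside 677 in control mouse 3. The other 5 phenobarbital arrays were well above background, with processed signals of 116 to 349, against 409 to 707 on the 6 control arrays.

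In the two-colour 1X set the Col27a1 values were 6.85, 6.80 and 6.78 in phenobarbital mice and 7.51, 7.41 and 7.61 in control mice. Two-colour values are log2 intensities after background correction with an added offset of 50, averaged over both dyes. The labels conflict on mouse numbers for 4 of the 6 arrays used in this set, and the values by mouse follow the description. The groups were again apart, and the change of -0.70 passed the threshold (SE 0.08, adjusted p = 0.00243). The spots were well above background on 3 of 6 phenobarbital measurements and 6 of 6 control measurements. The size of the change in this set depended on the background treatment: with the scanner software's own processed signals it was -2.03 (adjusted p = 0.0115). At two-colour 1.5X the probe was not well above background in Cy5 and was not tested over both dyes. In the Cy3 channel alone it read 6.93, 6.76 and 6.73 in phenobarbital mice and 7.39, 7.26 and 7.28 in control mice (change -0.50, adjusted p = 0.138), and 0.0963% of genes passed in that channel.

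Limits of the Col27a1 call over both one-colour inputs were that most fits without a mouse lost it and that it depended on the genes tested beside it. It was past the threshold when phenobarbital mouse 1 was left out and not when any of the other 5 mice was, with adjusted p between 0.0147 and 0.129 and a change between -2.03 and -1.55. Without the filter on dim probes the adjusted p was 0.0849.

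Col5a3, a minor chain of type V collagen that joins type I fibrils, had the next lowest estimate. Over both one-colour inputs it read -0.57, -0.94 and -1.0 in phenobarbital mice and 0.08, 0.23 and -0.24 in control mice. The groups did not overlap, and the change of -0.86 (SE 0.19) did not pass the threshold over all genes (adjusted p = 0.116). Groups that do not overlap in either direction were found in 19.0% of all genes tested, so the separation alone sets little apart. At 1X the values were -0.79, -1.08 and -1.27 in phenobarbital mice and -0.12, -0.05 and -0.54 in control mice. At 1.5X they were -0.34, -0.80 and -0.74 in phenobarbital mice and 0.29, 0.50 and 0.06 in control mice. The changes in these sets were -0.81 (adjusted p = 0.342) and -0.91 (adjusted p = 0.135), and neither passed.

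In the two-colour 1X set Col5a3 was lower with phenobarbital and past the threshold. It read 7.96, 8.03 and 7.92 in phenobarbital mice and 8.42, 8.49 and 8.41 in control mice, a change of -0.47 (SE 0.07, adjusted p = 0.00805) on spots well above background in all 12 measurements. The groups were far apart relative to their spread. The call was not past the threshold with Cy3 alone (adjusted p = 0.109) or with the mouse numbers of the source names (adjusted p = 0.104). Nor did it pass with all 8 arrays of the set under either labelling. It passed in 5 of 9 other settings that kept every mouse, with limma adjusted p between 0.00405 and 0.333. Its Cy3 values at two-colour 1.5X were 7.19, 6.24 and 6.88 in phenobarbital mice and 7.64, 7.40 and 7.30 in control mice (adjusted p = 0.584).

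Col1a1 and Col1a2 encode the chains of type I collagen, the main collagen of scar tissue, and Col3a1 the chain of type III, found with it in reticular fibres. Col1a1 read 1.47, 1.27 and 1.23 in phenobarbital mice and 0.70, 0.85 and 1.27 in control mice over both one-colour inputs. Control mouse 3 lay level with the phenobarbital mice and the other controls below them (change 0.39, SE 0.19, adjusted p = 0.431). Col1a2 read 2.63, 2.54 and 2.38 in phenobarbital mice and 2.04, 2.15 and 2.34 in control mice, narrowly without overlap (change 0.33, SE 0.15, adjusted p = 0.397). Col3a1 read 3.54, 3.23 and 3.12 in phenobarbital mice and 2.86, 3.16 and 3.38 in control mice, with full overlap (change 0.16, SE 0.19, adjusted p = 0.757). None of these 3 passed, although their probes were among the 5 brightest of the family.

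In the two-colour 1X set the estimates for these chains were positive as well. Col1a1 changed by 0.34 (adjusted p = 0.136), Col1a2 by 0.26 (adjusted p = 0.0863) and Col3a1 by 0.35 (adjusted p = 0.147), again short of the threshold. Col1a2 averaged 10.36 ± 0.0402 in phenobarbital mice and 10.1 ± 0.088 in control mice (SD, n = 3 each), without overlap. In the two-colour 1.5X set Col1a2 (0.05) and Col3a1 (-0.04) were close to 0 over both dyes, both with adjusted p = 0.999. In the Cy3 channel alone Col1a2 gave 0.32 and Col3a1 -0.09, and 0 of 18 tested chains passed there. Col1a2 read 9.24, 9.39 and 9.1 in phenobarbital mice and 8.9, 8.79 and 9.09 in control mice in that channel, narrowly without overlap. The difference between Cy3 alone and both dyes was not tested. Col3a1 was also near 0 at one-colour 1X (0.01), and its estimate changed sign under other scalings there. Col5a1, the alpha-1 chain of type V, was the last tested fibrillar chain, at 0.27 over both one-colour inputs (SE 0.16, adjusted p = 0.512).

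**Figure D3:**
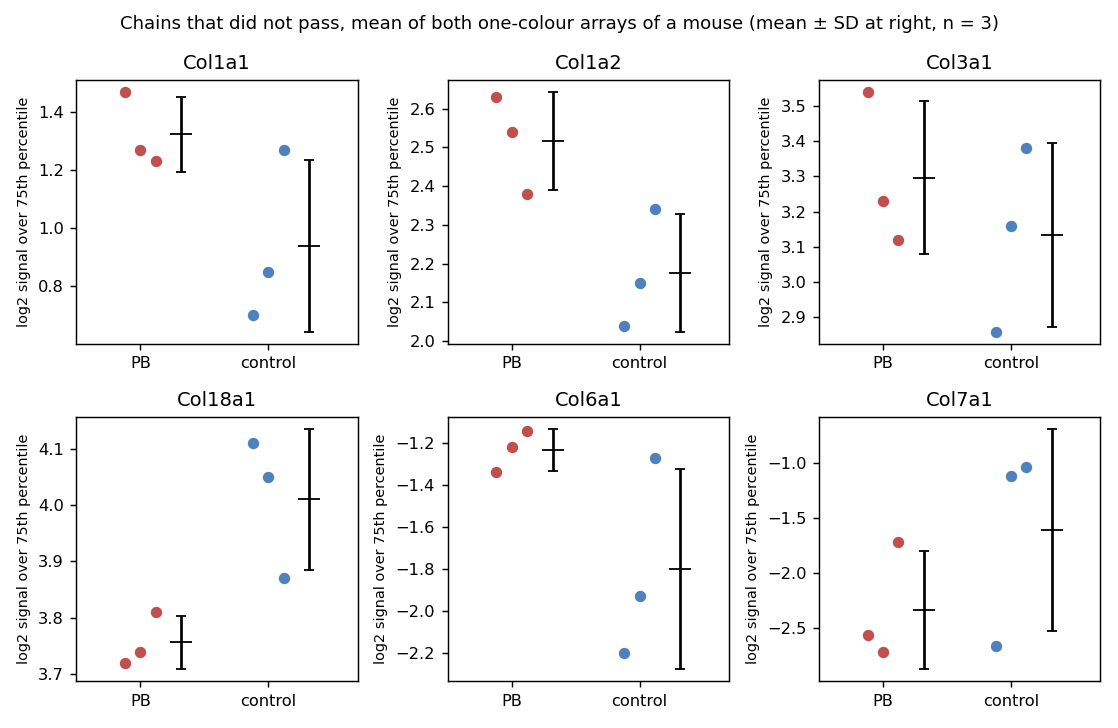
Values of 6 collagen genes that did not pass over both one-colour inputs, by mouse (points, y axis: log2 signal over the array's 75th percentile) with the group mean ± SD (n = 3), phenobarbital (PB) left of control. Col1a2 and Col18a1 separate the groups by a narrow margin, and the other 4 overlap.

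Among basement membrane chains, Col15a1 and Col18a1 had estimates of opposite sign. Both are multiplexins, collagens with an interrupted helix whose C-terminal fragments include restin and endostatin. Col15a1 read -1.01, -0.64 and -0.64 in phenobarbital mice and -1.43, -1.36 and -0.99 in control mice over both one-colour inputs (change 0.50, SE 0.18, adjusted p = 0.310). The groups met at phenobarbital mouse 1 and control mouse 3. All 3 Col15a1 probes were positive there, at 0.50, 0.66 and 0.50.

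In the two-colour 1X set Col15a1 was higher with phenobarbital and past the threshold. It read 7.43, 7.40 and 7.54 in phenobarbital mice and 7.16, 7.08 and 7.13 in control mice, without overlap (change 0.34, SE 0.07, adjusted p = 0.0355). Over the 6 fits that left out a mouse the change ran from 0.30 to 0.36. The adjusted p stayed below 0.05 in 1 of them, the one without phenobarbital mouse 3 (between 0.0441 and 0.131 over the 6). The mean of its 3 probes gave 0.20 (adjusted p = 0.0970), and the mouse numbers of the source names gave adjusted p = 0.186. Nor did Col15a1 pass with Cy3 alone (adjusted p = 0.098) or with all 8 arrays of the set under either labelling. It passed in 4 of 9 other settings that kept every mouse, with limma adjusted p between 0.0314 and 0.401.

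**Figure D4:**
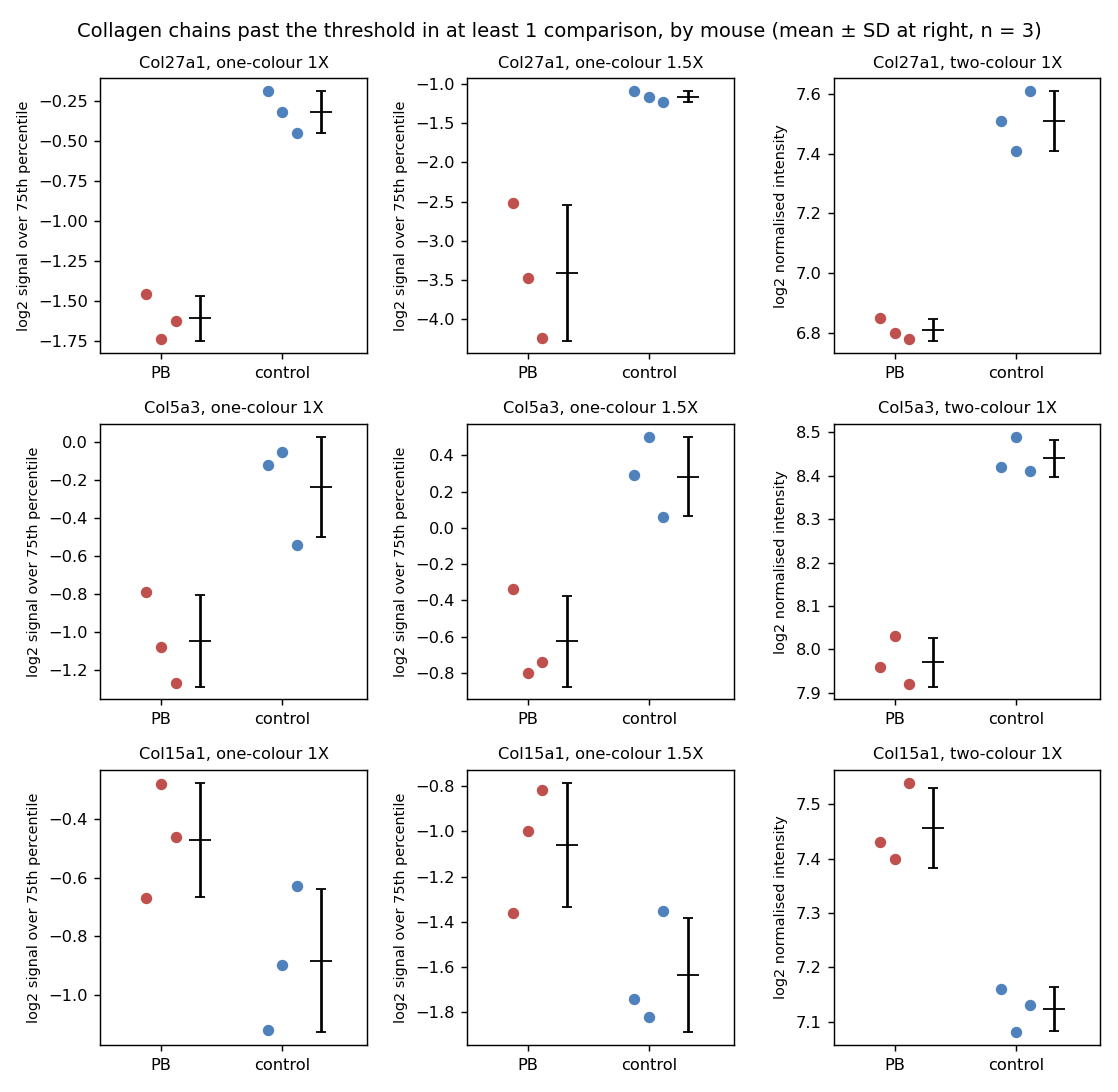
Values of Col27a1, Col5a3 and Col15a1 by mouse (points) in 3 sets, with the group mean ± SD (n = 3), phenobarbital (PB) left of control. The y axis is the log2 signal over the array's 75th percentile in the one-colour sets and the log2 normalised intensity in the two-colour set. Each y axis has its own range. Col27a1 and Col5a3 separate the groups in all 3 sets and Col15a1 in the two-colour 1X set.

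Col18a1, which in liver is known to be made by hepatocytes, had the brightest collagen probe on the arrays. It read 3.72, 3.74 and 3.81 in phenobarbital mice and 4.11, 4.05 and 3.87 in control mice, a small difference without overlap (change -0.26, SE 0.14, adjusted p = 0.479). Its other probe gave -0.28. The two-colour sets gave -0.22 at 1X (adjusted p = 0.115) and -0.24 at 1.5X (adjusted p = 0.999), and none of these passed.

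Col4a1 and Col4a2 gave estimates near 0 over both one-colour inputs. They encode the chains of the common type IV network and share a promoter. Their RefSeq windows lie on opposite strands and overlap by 78 bases, shown here on the plus strand because both genes start from this stretch, with GGGCGG in capitals.
Col4a1 and Col4a2, chr8:11312777-11312854: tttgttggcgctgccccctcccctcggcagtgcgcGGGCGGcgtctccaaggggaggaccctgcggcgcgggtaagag

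Col4a1 read 0.90, 0.90 and 0.88 in phenobarbital mice and 0.79, 0.92 and 1.0 in control mice, a change of -0.01 (SE 0.14, adjusted p = 0.988). Col4a2 read -1.51, -1.90 and -1.46 in phenobarbital mice and -1.53, -2.02 and -1.85 in control mice, a change of 0.18 (SE 0.19, adjusted p = 0.741). Col4a1 lay within the range of the controls, and 2 of 3 phenobarbital mice lay above every control for Col4a2. At one-colour 1X, Col4a2 read -1.03, -1.14 and -0.91 in phenobarbital mice and -1.16, -1.47 and -1.40 in control mice, without overlap, as did 7.44% of all genes tested there in that direction (change 0.32, adjusted p = 0.719). Col4a4, from the type IV network known in kidney, gave -0.07 with its brightest probe (adjusted p = 0.880) and -0.54 with another, so its probes disagreed in size. Col4a3, a partner of Col4a4 in that network, was too dim for the test over both inputs, with 2 of 6 phenobarbital and 5 of 6 control arrays well above background. It read -4.92, -5.02 and -5.06 in phenobarbital mice and -3.96, -3.17 and -4.20 in control mice there, without overlap. At one-colour 1X, where it was tested, it read -3.00, -4.28 and -3.81 in phenobarbital mice and -3.44, -2.84 and -3.01 in control mice, with overlap (change -0.60, SE 0.34, adjusted p = 0.700).

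Of the other chains, Col6a1 had the highest estimate. It encodes the alpha-1 chain of type VI collagen, which forms fine beaded filaments around cells. Col6a1 read -1.34, -1.22 and -1.14 in phenobarbital mice and -2.20, -1.93 and -1.27 in control mice (change 0.56, SE 0.24, adjusted p = 0.373). As for Col1a1, control mouse 3 lay with the phenobarbital mice. Its partner Col6a2 gave 0.37 (SE 0.28, adjusted p = 0.618), and at two-colour 1X Col6a1 gave 0.18 (adjusted p = 0.260). Col16a1 and Col14a1, of the collagens that bind to fibril surfaces, gave 0.36 (adjusted p = 0.598) and -0.12 (adjusted p = 0.824). With each mouse left out in turn, the estimate ran from 0.36 to 0.83 for Col6a1, from 0.09 (without phenobarbital mouse 1) to 0.59 for Col6a2 and from 0.12 (without phenobarbital mouse 2) to 0.59 for Col16a1.

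Col7a1, the chain of the anchoring fibrils of skin and mucosa, had the lowest estimate of this class and the widest spread. It read -2.57, -2.72 and -1.72 in phenobarbital mice and -2.67, -1.12 and -1.04 in control mice (change -0.73, SE 0.47, adjusted p = 0.560). The groups overlapped, with control mouse 1 among the phenobarbital mice, and the estimate ran from -1.26 (without control mouse 1) to -0.44 (without control mouse 3). The summed signal of 11 pancreas markers (each relative to the array's 75th percentile, on a linear scale), all seen on at least 1 array, varied over the same mice: 83.6, 161 and 472 in phenobarbital mice and 127, 401 and 479 in control mice. These sums overlapped too, 0 of the 10 pancreas markers tested passed, and their part in the Col7a1 values was not tested.

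The wider list of the one-colour 1X set added 6 tested chains that were too dim for the test over both inputs: Col4a3, Col8a2, Col9a2, Col11a2, Col23a1 and Col25a1. By limma 0 members passed among the 22 tested there, where 0.161% of all genes did, and 0 among the 16 tested at one-colour 1.5X, where 0.237% did. Unadjusted p was under 0.05 for 2 of the 22 and 8.58% of all genes at 1X, and for 3 of the 16 and 14.9% of all genes at 1.5X. Col8a2, a short-chain network collagen known from the cornea, lay higher without overlap at 1X, as did 7.44% of all genes tested there. It read -3.96, -3.96 and -3.45 in phenobarbital mice and -4.11, -4.06 and -4.82 in control mice. The difference did not pass (change 0.54, adjusted p = 0.655). Its spots were well above background on 3 of 3 phenobarbital and 2 of 3 control arrays. Col8a2 thus entered the test through the phenobarbital group alone. At 1.5X it was seen on 0 of 6 arrays. Beside Col27a1, Col5a3, Col15a1, Col18a1, Col1a1, Col1a2, Col3a1, Col6a1 and Col7a1, the other 13 tested chains ranged in change from -0.60 for Col4a3 to 0.57 for Col16a1 at one-colour 1X, with adjusted p of 0.620 or more.

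In the two-colour 1X set, 3 of 12 tested members passed, Col15a1 higher and Col27a1 and Col5a3 lower, beside 6.26% of all 8259 genes tested (3.35% higher and 2.91% lower). Groups without overlap were found for 7 of the 12 members and for 33.0% of all genes tested. The median change of the 12 was -0.02, against -0.01 for all genes. In the two-colour 1.5X set, 3 members were tested (Col1a2, Col3a1 and Col18a1) and 0 passed by limma, as did 0% of the 1663 genes tested. None of these 3 had an unadjusted p under 0.05, against 1.74% of those genes.

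**Figure D5:**
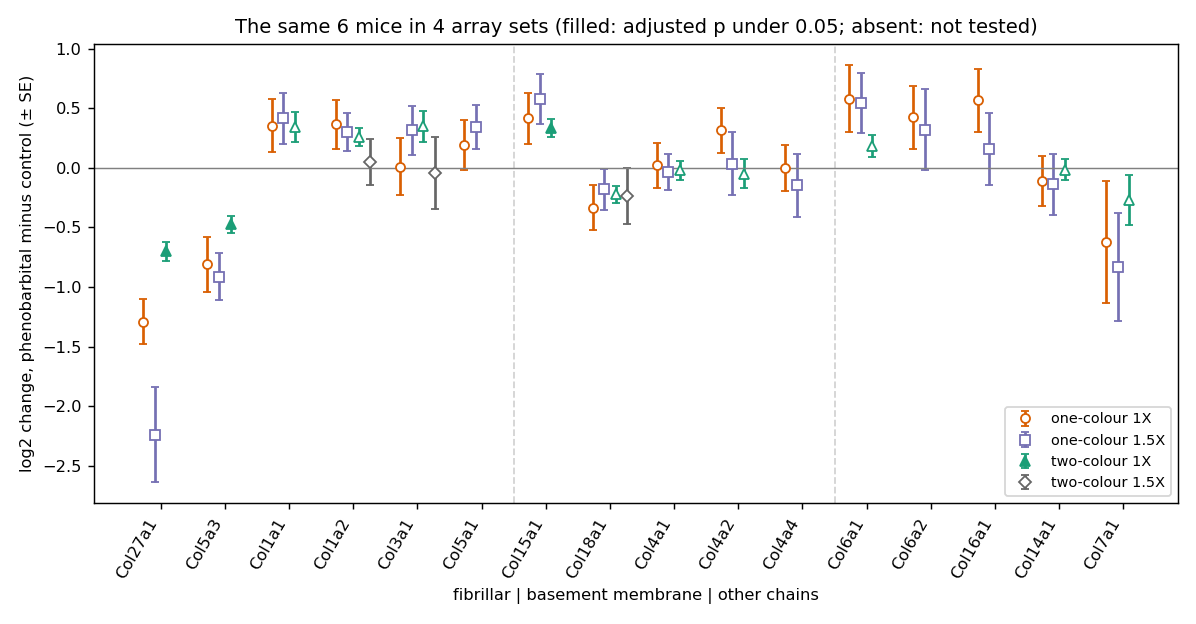
Log2 change, phenobarbital minus control, with its standard error (y axis) for 16 collagen genes (x axis, by class) in the 4 array sets of the same 6 mice. Col27a1 and Col5a3 lie below 0 in each of the 3 sets that tested them, and the two-colour points are closer to 0 than the one-colour points for both. Only the two-colour values carry an added offset of 50.

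Whether a change differed between sets was tested on differences within mice. Within a format, input, slide and scan session cannot be told apart. Between the one-colour inputs, 0 of 16 members passed by limma, as did 0% of 12880 genes. Unadjusted p was under 0.05 for 1 member, Col27a1 (1.5X minus 1X -0.95, SE 0.36, adjusted p = 0.822), and for 5.65% of genes. Between two-colour 1X and one-colour 1X, 0 of 12 members passed by limma, beside 0.0242% of genes. There the unadjusted p was under 0.05 for 2 members, Col27a1 (0.59, SE 0.18, adjusted p = 0.994) and Col4a2 (-0.36, SE 0.16, adjusted p = 0.994), and for 4.79% of genes. Only the two-colour values carried the added offset of 50, so format and processing cannot be told apart. With the scanner software's processed signals the two-colour 1X change of Col27a1 was -2.03, beside -1.29 at one-colour 1X. Mice were matched by numbers that conflict on 4 of the 6 two-colour arrays. The changes of the collagen chains were thus not shown to differ between inputs, or between formats as processed here.

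Genes that build, join and remove collagen were described from lists. Over both one-colour inputs 0 members of these lists passed by limma, and 3 of the 33 tested (Loxl4, Timp3 and Mmp15) had an unadjusted p under 0.05, beside 13.5% of all genes tested. Of 25 enzymes of collagen maturation, 13 were tested, with a median change of 0.03, against -0.02 for all genes. P3h1, a prolyl 3-hydroxylase, gave 0.86 (SE 0.53, adjusted p = 0.540), and Pcolce2, an enhancer of procollagen cleavage, gave 0.42 (adjusted p = 0.574). Of 14 genes of crosslinking and fibril assembly, 9 were tested, with a median of 0.05. Loxl4, a lysyl oxidase that starts crosslinks, read -4.16, -4.07 and -4.64 in phenobarbital mice and -3.43, -3.41 and -3.39 in control mice, without overlap (change -0.88, SE 0.18, adjusted p = 0.0965). Loxl4 spots were well above background on 3 of 6 phenobarbital and 6 of 6 control arrays. The gene thus entered the test through the controls, and its change includes phenobarbital spots not well above background. Groups without overlap were found for 19.0% of all genes tested. Loxl1 gave 0.35 (adjusted p = 0.639).

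Of 15 turnover genes, 4 were tested, with a median of -0.18. Timp3, an inhibitor of matrix metalloproteinases, read -3.66, -4.28 and -3.90 in phenobarbital mice and -2.86, -3.15 and -3.20 in control mice, without overlap (change -0.88, SE 0.20, adjusted p = 0.121). Timp3 spots were well above background on 4 of 6 phenobarbital and 6 of 6 control arrays. It too entered the test through the controls, and its change includes phenobarbital spots not well above background. Mmp15, a membrane-bound metalloproteinase, gave -0.45 (adjusted p = 0.258). Of 9 receptor genes, 2 were tested: Itga1, the alpha-1 subunit of a collagen-binding integrin, gave -0.55 (adjusted p = 0.440) and Itgb1, its beta-1 partner, 0.02 (adjusted p = 0.970). Of 12 genes of TGF beta signalling, a pathway known to drive collagen synthesis, 5 were tested, with a median of -0.08. The estimates furthest from 0 among them were -0.35 for Smad3 (adjusted p = 0.543) and -0.29 for Tgfbr1 (adjusted p = 0.417).

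In single sets, 1 gene of these lists passed. Colgalt2, a collagen galactosyltransferase, passed at one-colour 1.5X, at -3.80, -3.71 and -3.65 in phenobarbital mice and -5.58, -5.89 and -5.68 in control mice (adjusted p = 0.0055). Its spots were well above background on 3 of 3 phenobarbital arrays and 0 of 3 control arrays, so it entered the test through the phenobarbital group alone, and the difference was at least 1.73-fold higher with phenobarbital. At one-colour 1X it was well above background on 2 of 3 phenobarbital and 1 of 3 control arrays, read -4.76, -3.56 and -3.95 in phenobarbital mice and -6.59, -3.63 and -5.09 in control mice, with overlap, and was not tested.

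Markers of the cells that make or surround collagen were read beside these values. Of 12 stellate cell and fibroblast markers 10 were seen on at least 1 one-colour array, with Pdgfrb and Lum on none. Their summed signal, on the same linear scale as the pancreas sums, was 6.54, 6.49 and 6.71 in phenobarbital mice and 6.12, 6.44 and 5.79 in control mice, a narrow gap without overlap, and 0 of the 7 tested passed. Of these 7, 4 estimates were positive and 3 negative, with a median of 0.05. For 1 of them the groups did not overlap, beside 19.0% of all genes tested. A linear sum weighs bright genes most, and Dcn, the brightest of the 7, overlapped (change 0.13, limma adjusted p = 0.724). The 9 endothelial markers summed to 3.07 to 3.93 in phenobarbital mice and 3.73 to 4.50 in control mice, with 0 of 7 passing. None of the 2 cholangiocyte, 3 Kupffer cell and 1 mesothelium markers tested passed either. The part of either list in the collagen values was not tested. Of the 3 cartilage markers, Acan and Matn1 were seen on no one-colour array. The Sox5 probe was bright, averaging 7.19 in phenobarbital mice and 7.01 in control mice (change 0.19, limma adjusted p = 0.672). It read above the Alb probe (6.72 and 6.89), and whether its signal comes from Sox5 RNA was not tested. Col27a1 was seen on 11 of 12 arrays, and its cell source was not tested. The hepatocyte markers summed to 300 to 379 in phenobarbital mice and 342 to 395 in control mice. At two-colour 1X, 2 of these 5 markers, Alb (change -0.39, limma adjusted p = 0.0213) and Ttr (change -0.62, adjusted p = 0.00788), fell with phenobarbital, as did 2.91% of all genes tested. Apoa1 (-0.31, adjusted p = 0.107), Serpina1a (-0.01, adjusted p = 0.932) and Fgb (0.01, adjusted p = 0.936) did not pass.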

How the data were processed

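Livers of 6 mice were measured on 28 Agilent arrays, 12 one-colour and 16 two-colour, on 4 slides. RNA came from paraffin blocks with a Qiagen kit, was amplified as cDNA (WTA2) and labelled chemically (ULS), per the labels' protocols. Per the file headers, the authors extracted each array with Feature Extraction 11.0.1.1, and the deposited tables hold an intensity per spot (median signals and a processed, background-subtracted signal), in two-colour files also log10 ratios of Cy5 over Cy3, and spot flags of 0 or 1. The deposited series matrix repeats the processed intensity and the log10 ratio, with its sign reversed on 8 arrays.

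One-colour values are log2 processed signals scaled by each array's 75th percentile, which was taken over the probes detected throughout the set. For two-colour values, median signals went through normexp (offset 50), loess (span 0.3) and Aquantile normalization in limma. The value of a mouse is the mean of its dyes or inputs. Arrays 4 and 8 of the two-colour 1X set were left out, since their description and channel labels give exposures opposite dyes. Mouse numbers in the description and in the source names conflict on arrays 3, 5, 6 and 7, where those of the description were taken. Outlier spots and controls were left out and replicate spots averaged. Tests were limited to genes detected (flagged well above background) on every array of either exposure group. Phenobarbital and control mice (n = 3 each) were compared by limma's lmFit and eBayes (limma 3.58.1, R 4.3.3), and p-values were adjusted by Benjamini-Hochberg over all genes tested, with a threshold of 0.05. The fits were tested on simulated data. Arrays have no count depth, and precision is limited by the number of mice and arrays.

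Symbols came from RefSeq accessions (table of GRCm38.p6, used for names), which named 27235 probes. Promoter windows came from RefSeq and were there for 35 of the 43 members. Col12a1 is in the RefSeq table, and the accession match gave it no probe, so it is not analysed here. Named genes were every member past the threshold, Col1a1, Col6a1 and Col27a1, up to 4 highest and 4 lowest members of each class, the 5 brightest, and of each pathway list those past the threshold or the 2 with the largest change. Col8a2 was named after its values were seen. The members, lists and tests were chosen with earlier results of these data known.

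Alternatives were other background corrections and scalings, the series matrix values, Cy3 alone, other mouse labels, no filter on dim probes, the mean of a gene's probes, slide row or mouse number as a block, and each mouse left out. Figures used matplotlib 3.10.9 in Python 3.11.15.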

Additional observations from a re-analysis of the deposited data

How the results depend on the processing

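Of the single-chain results under other settings, 589 kept their direction and their side of the threshold, mostly results that never passed. Another 21 fell short of it, 2 newly passed and 18 changed sign, none of these past the threshold. Only results past the threshold in the main fit could fall short. Over both one-colour inputs Col27a1 passed in 5 of 7 other settings with every mouse and 1 of 6 without a mouse. At two-colour 1X these counts were 8 of 8 and 6 of 6 for Col27a1. They were 5 of 9 and 6 of 6 for Col5a3, and 4 of 9 and 1 of 6 for Col15a1. Over both one-colour inputs, 0 chains passed without the filter on dim probes (more genes tested) and 0 with the mouse number as a replicate block (Col27a1 adjusted p = 0.0512). Same-numbered mice did not all deviate together over both one-colour inputs (correlations of 0.052, -0.122 and 0.283, with 1 of 3 numbers correlating best with its own) or at two-colour 1X (0.277, -0.0338 and 0.382, with 2 of 3). Number 3 correlated best with its own in every comparison, and number 1 at two-colour 1X and one-colour 1.5X. So few correlations cannot decide whether the numbers mark pairs. The block changed no other count of chains passing. Leaving out each mouse gave 0 to 1 chains passing over both one-colour inputs, 0 to 1 at one-colour 1.5X and 2 to 3 at two-colour 1X. Among all genes the count went from 96 to between 16 and 106 over both one-colour inputs, from 30 to between 5 and 18 at one-colour 1X, from 31 to between 11 and 142 at one-colour 1.5X, and from 517 to between 214 and 629 at two-colour 1X. At one-colour 1.5X, 1 chain (Col27a1) passed with normexp and quantile normalization. At two-colour 1X, 1 of 14 tested chains (Col27a1) passed with Cy3 alone, beside 1.34% of all genes tested there and 6.26% in the main fit. Col27a1 was also the only chain that passed with the mice of the source names. The same held with all 8 arrays by their source names (an alternative chosen after seeing the data). With all 8 arrays by their description 0 of 11 tested passed, and Col27a1 was too dim to be tested there. The cause was not tested. Counting chains seen on at least 0.5 of the arrays raised the detected number at two-colour 1.5X from 3 to 15.

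Without scaling between arrays, also chosen after seeing the data, the median of all genes over both one-colour inputs was -0.23 in place of -0.02, and Col4a2 (-0.04) and Col3a1 (-0.05) turned negative, still above that median. Col4a1 turned to 0 with normexp and quantile normalization and to 0.02 with series matrix values. Col3a1 at one-colour 1X turned to -0.06 with normexp and quantile normalization, -0.02 with all probes in the percentile, -0.01 with series matrix values, -0.28 without scaling and -0.08 with slide row as a block. With each mouse left out, signs changed over both one-colour inputs for Col14a1 (-0.24 to 0.03) and Col4a1 (-0.07 to 0.04), at one-colour 1X for Col3a1 (-0.16 to 0.11), and at two-colour 1.5X for Col1a2 (-0.05 to 0.16) and Col3a1 (-0.27 to 0.18). Low signal over background limits what 13 chains, and most chains in Cy5, can show.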
